A study of Mus musculus with 12 samples.

Results

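The joint response to the PPARδ agonist GW1516 and treadmill training was measured in mouse quadriceps by setting the 3 arrays of mice given both against the 3 arrays of mice given neither. These 6 of the 12 arrays of the series were chosen by their labels alone: 3 of GW1516 with exercise training, called combination here, and 3 of vehicle. All 4 groups were C57Bl/6J mice treated for 4 weeks. The combination mice received GW1516 at 5 mg/kg/day and were trained on a treadmill, and the vehicle mice received vehicle and stayed sedentary. For comparison, the GW group had GW1516 at the same dose without training and the exercise group had vehicle with training. Each array was hybridized with RNA pooled from 3 mice, so a group of 3 arrays stands for 9 mice, the spread between single mice is not seen, and every p-value measures the spread between pools. The sex and the age of the mice are not given in the sources used here.

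PPARδ is a nuclear receptor that binds DNA together with the retinoid X receptor and switches on genes for the uptake, transport and oxidation of fatty acids when a fatty acid or a synthetic agonist such as GW1516 is bound. It is abundant in skeletal muscle, where endurance training also raises the capacity to burn fat. Single bouts of exercise switch on a different set of genes within minutes to hours, among them immediate early transcription factors and heat shock chaperones, and these fall back after the bout.

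The values were MAS5 signals on a linear scale, already brought by the authors to a common level, with array means trimmed by 2% at each end that ran from 200.093 to 200.098. Of 22626 probe sets left after the control probe sets were removed, the 13576 with the highest mean signal were tested with limma on log2 signals over all 12 arrays. A probe set was called at a Benjamini-Hochberg adjusted p under 0.05. The bacterial control probe sets had a 95th percentile of 23.5 signal units, and values near it lie at the background. Muscle RNA was seen on every array, with Myh4, the fast IIb myosin heavy chain, at 18332, 20845 and 19735 signal units on the combination arrays and 17124, 17961 and 18391 on the vehicle arrays. Its log2 difference was 0.14 (adjusted p = 0.518), or -0.039 after quantile normalization. The 3′ to 5′ ratio of Gapdh, a measure of RNA integrity, was 0.900, 0.877 and 0.914 on the combination arrays and 0.890, 0.906 and 0.904 on the vehicle arrays, and that of actin was 0.826, 0.803 and 0.841 on the combination arrays and 1.10, 0.918 and 0.838 on the vehicle arrays.

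Combination treatment gave 21 called probe sets against vehicle, 0.155% of those tested, of which 20 rose (0.147%) and 1 fell (0.00737%). The 19 that match 1 gene symbol stand for 16 genes, while 2 match several hemoglobin genes each and are described with the blood markers. Most of the named genes handle fatty acids: carriers and binding proteins, enzymes of β-oxidation, an uncoupling protein, and enzymes that make and desaturate fatty acids. Probe sets were also sorted by the arrays that carried the difference. A probe set was counted in an array where its signal lay at least 1.5-fold from the vehicle mean and beyond all 3 vehicle arrays. All 3 combination arrays were higher by this rule for 196 probe sets (1.44%) and lower for 39 (0.287%). A further 523 probe sets (3.85%) were at least 1.5-fold higher and 357 (2.63%) at least 1.5-fold lower on average, with only 1 or 2 arrays meeting the rule. For scale, all 3 combination arrays lay above all 3 vehicle arrays, by any amount, in 1078 probe sets (7.94%) and below them in 1205 (8.88%), together 16.8%. Single arrays of the vehicle group also departed widely. Combination arrays 1, 2 and 3 had 988, 1229 and 1279 probe sets at least 1.5-fold above the vehicle mean and 836, 785 and 729 below. Each vehicle array was set against the mean of the other 2 vehicle arrays. Arrays 1, 2 and 3 had 796, 546 and 1226 above and 1144, 737 and 732 below. Of the 21 called probe sets, 17 met the rule in all 3 arrays. At the edge of the rule, the weakest array of Dnajc11 was 1.50004-fold above the vehicle mean and that of Ralb, just outside, 1.49542-fold. Without vehicle array 3 the rule gave 384 higher and 84 lower probe sets, and without vehicle array 2 it gave 66 lower. With any 1 combination array left out, so that only the other two had to meet the rule, it gave 313 to 478 higher and 118 to 157 lower.

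**Figure D1:**
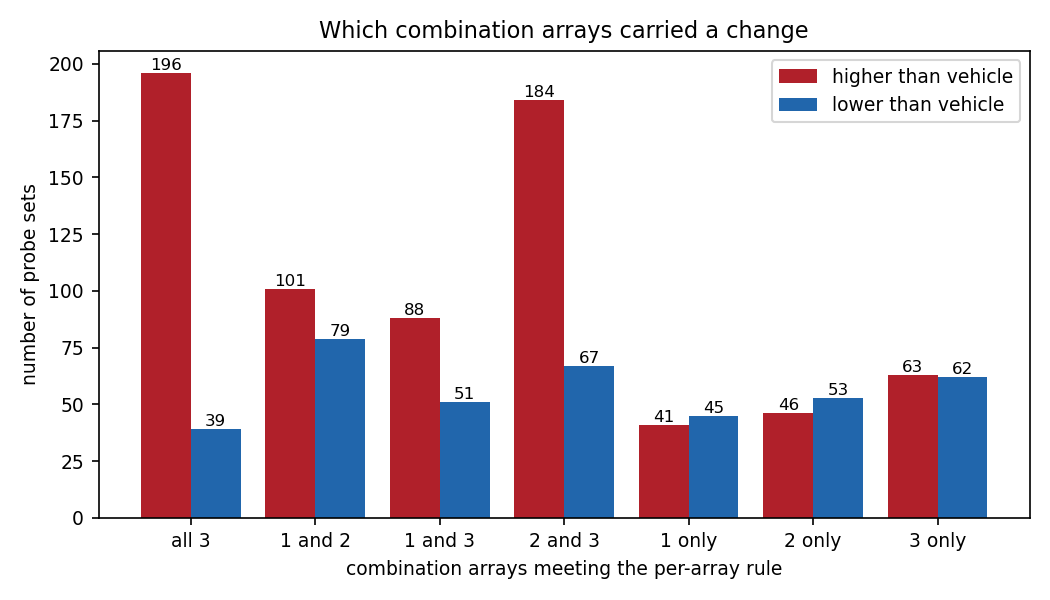
Number of tested probe sets, by which combination arrays were at least 1.5-fold from the vehicle mean and beyond all 3 vehicle arrays, for probe sets with higher and with lower mean signal. The class higher in all 3 arrays holds 196 probe sets and the class higher in arrays 2 and 3 holds 184, while 39 were lower in all 3.

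Genes for several steps of fatty acid uptake and passage into mitochondria rose. Slc27a1, the fatty acid transport protein FATP1 (Entrez gene 26457), had signals of 364, 431 and 442 on the combination arrays and 95.3, 126 and 125 on the vehicle arrays. The groups were far apart and the 3 combination arrays lay close together, a rise of 1.85 ± 0.15 on the log2 scale (SE, n = 3 arrays each), or 3.60-fold, with a limma adjusted p of 1.63e-05. Fabp3, the muscle fatty acid binding protein, had 4506, 4890 and 4653 signal units on the combination arrays and 3048, 2420 and 2195 on the vehicle arrays (1.85-fold, limma adjusted p = 0.00325). Cpt1a, an isoform of the carnitine palmitoyltransferase that commits fatty acids to mitochondrial entry (Entrez gene 12894), had 152, 150 and 195 signal units on the combination arrays and 63.2, 58.9 and 58.3 on the vehicle arrays. That is a rise of 1.45 ± 0.23 on the log2 scale (limma adjusted p = 0.0181), and the adjusted p was 0.0507 to 0.110 when vehicle array 1 or 2 or combination array 2 or 3 was left out.

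Slc25a20, the carnitine-acylcarnitine translocase of the inner mitochondrial membrane, had 669, 646 and 630 signal units on the combination arrays and 305, 356 and 383 on the vehicle arrays on the probe set that was called (1.87-fold, limma adjusted p = 0.0257). Its other probe set was higher in all 3 arrays and missed the threshold, at 983, 971 and 1275 on the combination arrays and 734, 642 and 519 on the vehicle arrays (adjusted p = 0.0956). Both probe sets separated the groups, and the call had an adjusted p of 0.0504 to 0.138 without vehicle array 1 or 2 or any 1 combination array. Dbi, which encodes the acyl-CoA binding protein, gave 880, 875 and 1002 on the combination arrays and 568, 356 and 499 on the vehicle arrays (1.97-fold, limma adjusted p = 0.0201), whereas its other 3 probe sets had log2 differences of 0.45 to 0.52 and were not called. The adjusted p of the called probe set was 0.0858 to 0.110 without vehicle array 2 or combination array 2 or 3. Cd36, the fatty acid translocase of the plasma membrane, was not called, with 377, 705 and 493 on the combination arrays and 390, 297 and 307 on the vehicle arrays (log2 difference 0.63, adjusted p = 0.262).

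Of 14 tested genes for uptake and the carnitine shuttle, counted with 1 probe set a gene, 11 had a positive log2 difference, 3 were called higher and 4 were higher in all 3 arrays, with a median difference of 0.45. Over the 7940 genes counted in the same way, 47.7% were positive, 12 were called higher, 0.982% were higher in all 3 arrays and the median difference was -0.01.

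**Figure D2:**
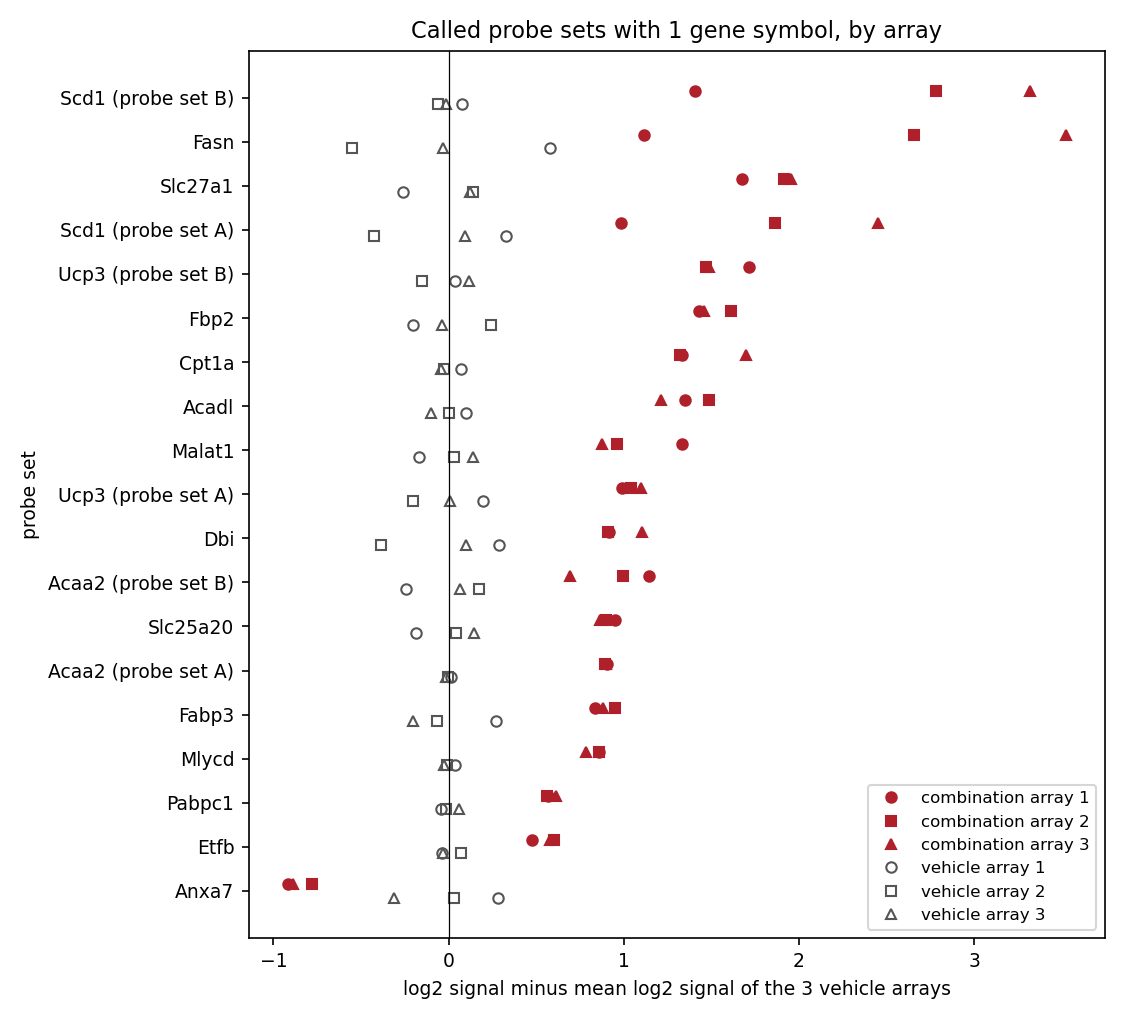
Log2 signal of each array minus the mean of the 3 vehicle arrays for the called probe sets that match 1 gene, with combination arrays above and vehicle arrays as open points. Acadl, Mlycd, Fbp2 and Acaa2 on probe set A have 3 combination arrays close together. On probe set B of Acaa2 they fall from 1.14 on array 1 to 0.69 on array 3. Fasn and Scd1 are spread, with array 1 lowest and array 3 highest.

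Within mitochondria, 4 genes of β-oxidation and its control rose, each by similar amounts on the 3 combination arrays, for Acaa2 on 1 of its 2 called probe sets. Acadl, the long-chain acyl-CoA dehydrogenase that starts the cycle (Entrez gene 11363), had 2839, 3124 and 2589 signal units on the combination arrays and 1196, 1117 and 1043 on the vehicle arrays. The lowest combination array was above the highest vehicle array by a wide margin, a rise of 1.35 ± 0.10 on the log2 scale, or 2.55-fold (limma adjusted p = 1.36e-05). Acaa2, the thiolase that ends each turn of the cycle, had 1131, 1120 and 1124 on the combination arrays and 611, 604 and 598 on the vehicle arrays on one probe set (1.86-fold, limma adjusted p = 5.28e-05). A second Acaa2 probe set also rose, less evenly, at 606, 547 and 443 on the combination arrays and 232, 310 and 287 on the vehicle arrays (1.92-fold, limma adjusted p = 0.0343). Its adjusted p was 0.0541 to 0.187 without any 1 vehicle array, combination array 1 or 2, or GW array 2. The remaining probe set, at 551, 545 and 467 on the combination arrays and 245, 469 and 398 on the vehicle arrays, was not called. Etfb, a subunit of the flavoprotein that passes the electrons of β-oxidation to the respiratory chain, had 3639, 3974 and 3909 on the combination arrays and 2551, 2744 and 2563 on the vehicle arrays. Its rise of 0.55 ± 0.07 (log2, limma adjusted p = 0.00148) was called although array 2 alone reached 1.5-fold.

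All 17 tested genes of mitochondrial β-oxidation had a positive difference, 4 were called higher and 3 were higher in all 3 arrays, with a median log2 difference of 0.29. By array, the median was 0.25, 0.42 and 0.32 above the vehicle mean on combination arrays 1, 2 and 3. The medium-chain and very long-chain acyl-CoA dehydrogenases Acadm and Acadvl were not called, with log2 differences of 0.17 and 0.29. Mlycd, which breaks down malonyl-CoA, the inhibitor of carnitine palmitoyltransferase, had 880, 879 and 837 on the combination arrays and 498, 482 and 478 on the vehicle arrays (1.78-fold, limma adjusted p = 0.00104). Of 11 genes for peroxisomal oxidation, 8 had a positive difference, none was called and none was higher in all 3 arrays, with a median of 0.18. Pex11a, a peroxisome proliferation factor, was the nearest to the threshold, with 443, 454 and 513 on the combination arrays and 332, 315 and 348 on the vehicle arrays (adjusted p = 0.130).

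Ucp3, the uncoupling protein of the inner mitochondrial membrane in muscle (Entrez gene 22229), rose on both of its probe sets. On one it had 1407, 1185 and 1202 signal units on the combination arrays and 439, 386 and 465 on the vehicle arrays (2.94-fold, limma adjusted p = 1.63e-05). On the other it had 1253, 1298 and 1354 on the combination arrays and 723, 549 and 635 on the vehicle arrays (2.06-fold, limma adjusted p = 0.000705). The arrays of the groups were separated on both. Fbp2, the muscle fructose-1,6-bisphosphatase (Entrez gene 14120), which runs a step of glycolysis backwards, had 1687, 1919 and 1720 on the combination arrays and 545, 741 and 611 on the vehicle arrays. It rose by 1.499 ± 0.12 on the log2 scale (2.83-fold, limma adjusted p = 1.36e-05) and was the one called gene among 21 tested genes of glycolysis and glycogen, whose median difference was 0.01.

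PPAR binds direct repeats of the half-site AGGTCA, with 1 base between the repeats. The windows from 250 bases before to 50 bases after the annotated start were therefore searched for the half-site on both strands. RefSeq windows (build GRCm38.p6) were found for 13 of the 16 called genes, 17 windows in all. Of these 17, 2 held the half-site, those of Ucp3 and Cpt1a, and it occurs in 16.3% of all 32851 windows. The direct repeat itself, with any base between the half-sites, is in 0.0396% of all windows and was in no window of a called gene. The Ucp3 window lies at chr7:100472741-100473040 and the Cpt1a window at chr19:3323051-3323350, both on the plus strand. They are printed 5′ to 3′ with the half-site in capitals, as AGGTCA on the printed strand or as TGACCT where it lies on the other strand, because these are the called genes with a match.
Ucp3: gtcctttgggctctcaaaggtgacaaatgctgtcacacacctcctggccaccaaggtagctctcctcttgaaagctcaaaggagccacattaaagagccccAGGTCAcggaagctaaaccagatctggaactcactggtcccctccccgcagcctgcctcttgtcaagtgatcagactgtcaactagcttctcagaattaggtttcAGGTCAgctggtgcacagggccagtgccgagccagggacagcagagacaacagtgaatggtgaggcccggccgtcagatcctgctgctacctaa
Cpt1a: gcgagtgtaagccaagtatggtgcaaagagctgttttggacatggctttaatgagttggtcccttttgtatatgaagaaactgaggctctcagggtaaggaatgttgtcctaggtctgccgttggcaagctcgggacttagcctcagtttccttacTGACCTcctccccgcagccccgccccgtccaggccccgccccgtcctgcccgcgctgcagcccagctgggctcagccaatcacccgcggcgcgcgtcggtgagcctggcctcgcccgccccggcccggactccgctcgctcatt

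Scd1 and Fasn, genes of fatty acid desaturation and synthesis, rose as well, but unevenly among the combination arrays. Scd1, the stearoyl-CoA desaturase that makes monounsaturated fatty acids (Entrez gene 20249), had 2235, 4115 and 6193 signal units on the combination arrays and 1420, 844 and 1209 on the vehicle arrays on its brighter probe set (3.40-fold, limma adjusted p = 0.0181). The dimmer one had 81.4, 211 and 306 on the combination arrays and 32.4, 29.4 and 30.3 on the vehicle arrays (5.67-fold, limma adjusted p = 0.00826). Fasn, the fatty acid synthase (Entrez gene 14104), had 291, 847 and 1543 on the combination arrays and 201, 91.7 and 131 on the vehicle arrays, a rise of 2.43 ± 0.42 on the log2 scale (limma adjusted p = 0.0312). Both genes were above every vehicle array on each combination array, with array 1 lowest and array 3 highest.

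The call for Fasn depended on single arrays: its adjusted p was 0.000108 without combination array 1, 0.187 without array 2 and 0.106 without array 3, and 0.167 and 0.0598 without vehicle array 2 or 3. It was 0.0503 to 0.0592 without exercise array 1 or 3 or GW array 2 or 3. The call was also lost under other model settings, at 0.226 with moderation without an intensity trend and 0.199 with only the arrays of the 2 groups compared. The brighter Scd1 probe set was at 0.201 and 0.0974 under these settings. The dimmer Scd1 probe set likewise gave 0.0858 without combination array 2, 0.0572 without array 3 and 0.0536 without vehicle array 2, and the brighter one 0.112, 0.0772 and 0.109. Markers of fat cells ran in the same array order. The summed signal of 8 measured fat cell marker genes was 3381, 6789 and 9766 on combination arrays 1, 2 and 3, against 4185, 3294 and 3683 on the vehicle arrays, and their part in the Fasn and Scd1 results was not tested. On combination array 1 the marker sum lay within the range of the vehicle arrays. Fasn was at 291 on this array and the brighter Scd1 probe set at 2235, with highest vehicle values of 201 and 1420. Acadl, Slc27a1, Ucp3 and Fbp2 were about as high on combination array 1 as on arrays 2 and 3. These are values of 1 array, and no cause was tested with them.

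Scd2, a related desaturase, and Elovl6, a fatty acid elongase, were higher in all 3 arrays without being called. Scd2 had 450, 269 and 285 on the combination arrays and 227, 162 and 153 on the vehicle arrays (adjusted p = 0.147), and Elovl6 had 40.2, 63.9 and 129 on the combination arrays and 25.9, 17.3 and 30.1 on the vehicle arrays (adjusted p = 0.256). Scd2 was highest on array 1, in contrast to Scd1 and Elovl6. Of 13 tested synthesis genes, 12 had a positive difference, 2 were called higher and 4 were higher in all 3 arrays, with a median of 0.47.

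The remaining called genes do not belong to fat metabolism. Malat1, a nuclear long noncoding RNA, had 421, 327 and 307 on the combination arrays and 149, 171 and 185 on the vehicle arrays on 1 probe set (2.08-fold, limma adjusted p = 0.0223), while its other 4 tested probe sets had log2 differences of 0.00 to 0.29 and were not called. The adjusted p of its call was 0.0534 to 0.107 without vehicle array 1 or 2 or any 1 combination array. Pabpc1, the cytoplasmic poly(A)-binding protein, was called at a smaller change that reached 1.5-fold on array 3 alone. It had 2182, 2173 and 2252 on the combination arrays and 1425, 1457 and 1531 on the vehicle arrays (limma adjusted p = 0.0181), with 0.0803 to 0.107 without vehicle array 1 or 2 or combination array 2 or 3. The single called decrease was Anxa7, a calcium-dependent membrane-binding annexin, with 159, 175 and 162 on the combination arrays and 365, 307 and 242 on the vehicle arrays. It fell by 0.86 on the log2 scale with an adjusted p of 0.0499, and the call was lost without vehicle array 1 or 2, any 1 combination or exercise array, or GW array 3 (0.0668 to 0.224). Its other 2 probe sets were lower without being called, at 75.4, 69.5 and 72.2 on the combination arrays and 122, 127 and 166 on the vehicle arrays on one of them (adjusted p = 0.147). The remaining one is the brightest of the gene. Counted with the brightest probe set of each gene, no gene was called lower.

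Several known PPAR targets were higher in all 3 combination arrays without passing the test. Pdk4, the kinase that shuts off pyruvate dehydrogenase and so spares glucose (Entrez gene 27273), had 2932, 3876 and 3604 signal units on the combination arrays and 2074, 1229 and 1284 on the vehicle arrays. Every combination array was above every vehicle array, but vehicle array 1 stood high, and the difference of 1.22 ± 0.23 (log2) had a limma adjusted p of 0.0570. Without vehicle array 1, GW array 1 or combination array 1 it was called (adjusted p = 0.0145, 0.00788 and 0.0393). Angptl4, whose secreted product blocks lipoprotein lipase (Entrez gene 57875), had 156, 342 and 328 on the combination arrays and 92.2, 37.9 and 20.1 on the vehicle arrays (log2 difference 2.65 ± 0.66, adjusted p = 0.169). It had the largest mean difference of the 7940 genes, with a wide spread in both groups.

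Plin2, a coat protein of lipid droplets, had 426, 564 and 630 on the combination arrays and 369, 185 and 251 on the vehicle arrays (adjusted p = 0.0756, with 0.00797 without vehicle array 1 and 0.0273 without combination array 1). Acot2, a mitochondrial acyl-CoA thioesterase, had 46.1, 71.6 and 67.6 on the combination arrays and 2.70, 17.0 and 32.4 on the vehicle arrays, with vehicle values at or near the background (adjusted p = 0.227). Cat, the peroxide-degrading catalase, had 529, 648 and 691 on the combination arrays and 433, 233 and 361 on the vehicle arrays (adjusted p = 0.147). In each of these 3 genes the groups were apart, and the spread among vehicle arrays was wide. Over 20 tested PPAR target genes of 24 on the list, 18 had a positive difference, 7 were called higher, 12 were higher in all 3 arrays and the median log2 difference was 0.89. Over all 7940 genes, 47.7% were positive, 12 were called higher and 0.982% were higher in all 3 arrays. The lists share genes, so some of the calls among PPAR targets were already counted in the lists above and are no further support. The median of the PPAR target list was 0.78, 0.99 and 0.89 above the vehicle mean on combination arrays 1, 2 and 3, so no single array carried it.

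**Figure D3:**
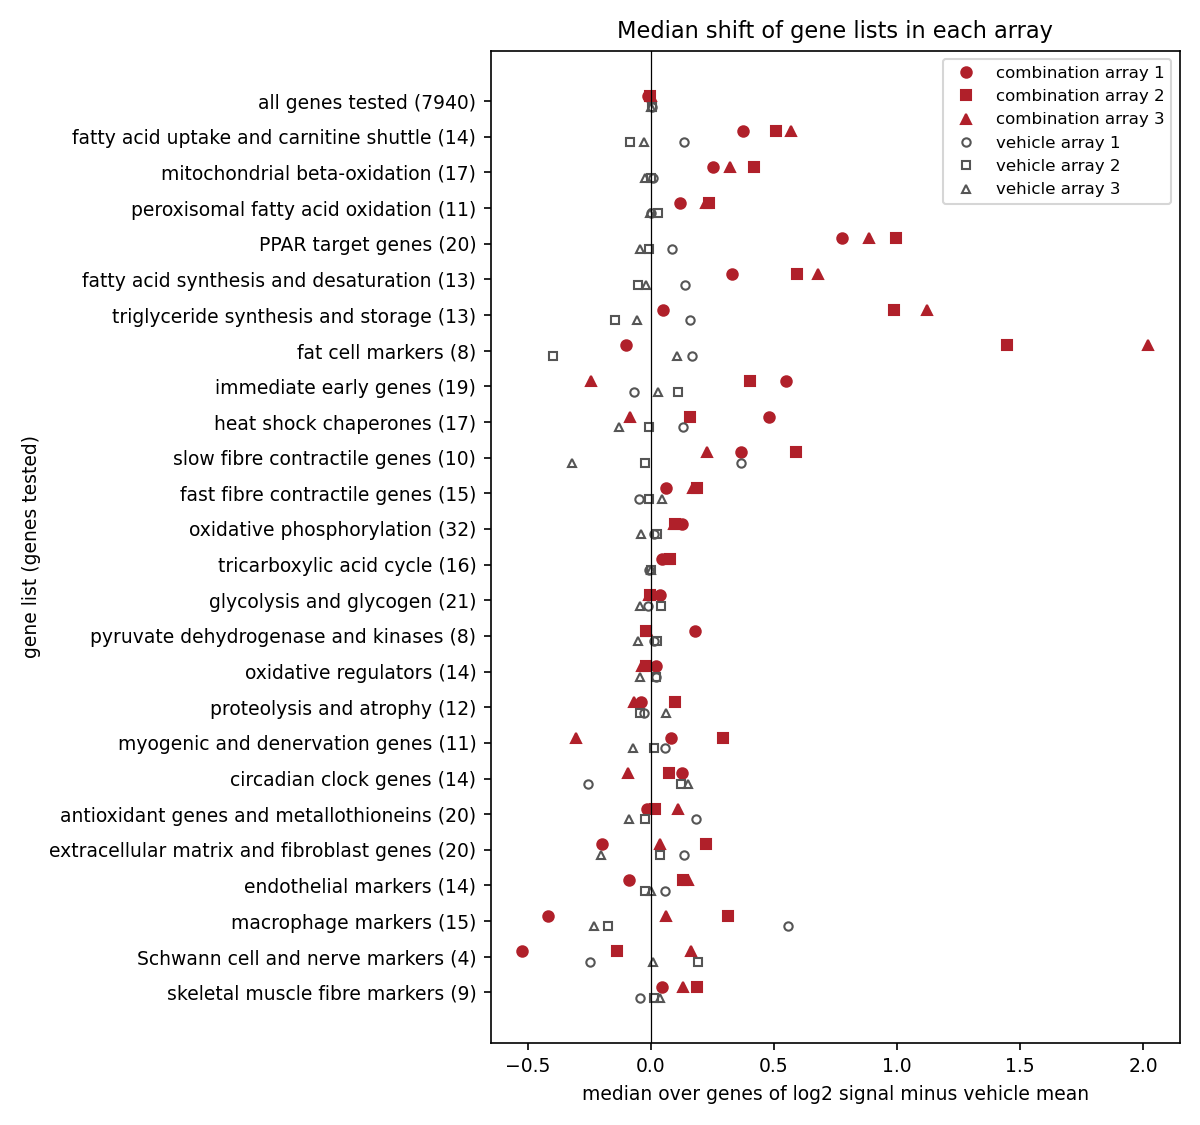
Median over the tested genes of each list of the log2 signal minus the vehicle mean, for each combination array and each vehicle array. PPAR targets are higher on all 3 combination arrays (0.78, 0.99 and 0.89), fat cell markers on arrays 2 and 3 (-0.10, 1.44 and 2.02), and immediate early genes on arrays 1 and 2 (0.55, 0.40 and -0.24).

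Many of the 196 probe sets higher in all 3 arrays were dim. Their median vehicle signal was 35.0, and in 34 of them the vehicle mean was at or below the 95th percentile of the bacterial controls. Adig, which encodes a fat cell protein, had 49.1, 79.3 and 121 on the combination arrays and 17.7, 19.5 and 11.8 on the vehicle arrays (adjusted p = 0.0590, and 0.0270 without combination array 1). Its arrays ran in the order of the fat cell markers. Prrc1, a protein of the secretory pathway, had 60.3, 79.6 and 56.5 on the combination arrays and 3.33, 13.2 and 38.9 on the vehicle arrays (adjusted p = 0.172, and 0.0173 without vehicle array 3). Vehicle arrays of both genes reached the background, so the size of these differences is poorly set.

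Among the 39 probe sets lower in all 3 arrays, a large difference was seen in Alb, which encodes albumin, a plasma protein made in the liver (Entrez gene 11657). It had 19.9, 46.1 and 31.2 on the combination arrays and 178, 122 and 97.5 on the vehicle arrays (log2 difference -2.07 ± 0.39, adjusted p = 0.0561, and 0.0301 without exercise array 2). Serpina1c, another liver-made plasma protein, had 37.5, 53.0 and 28.2 on the combination arrays and 131, 65.5 and 103 on the vehicle arrays (adjusted p = 0.227). The combination arrays of Alb were near the background. Srxn1, sulfiredoxin, which repairs oxidized peroxiredoxins, had 7.90, 14.1 and 12.3 on the combination arrays and 41.5, 46.8 and 52.7 on the vehicle arrays on 1 probe set (adjusted p = 0.177). The remaining 3 differed by -0.22 to -0.06 on the log2 scale. Rgcc, a regulator of the cell cycle, had 149, 197 and 242 on the combination arrays and 728, 335 and 363 on the vehicle arrays (adjusted p = 0.147), and its second probe set was lower in all 3 arrays too.

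Of 8 tested fat cell markers 7, and of 13 genes of triglyceride synthesis and storage 6, met the rule for higher signal on combination arrays 2 and 3 and not on array 1. Over all 7940 genes, 102 were in this class. Adipoq, the fat cell hormone adiponectin (Entrez gene 11450), had 270, 1049 and 1471 signal units on the combination arrays and 331, 210 and 365 on the vehicle arrays. Array 1 lay within the vehicle range while arrays 2 and 3 lay far above it, and the mean difference of 1.35 ± 0.43 on the log2 scale had an adjusted p of 0.312. Cidec, a lipid droplet protein of white fat cells, had 51.6, 283 and 716 on the combination arrays and 112, 45.4 and 62.9 on the vehicle arrays (adjusted p = 0.424). Retn, the fat cell hormone resistin, had 150, 521 and 929 on the combination arrays and 209, 82.8 and 97.0 on the vehicle arrays (adjusted p = 0.213). These 3 genes shared the order of arrays and none was called. Lipe, the hormone-sensitive lipase that frees fatty acids from fat stores, had 124, 317 and 502 on the combination arrays and 115, 83.1 and 113 on the vehicle arrays (adjusted p = 0.169).

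All 8 tested fat cell marker genes, of 15 on the list, had a positive mean difference, and none was called or higher in all 3 arrays. The marker that did not follow arrays 2 and 3 was Adipor2, an adiponectin receptor with wide expression, at 1386, 1516 and 1660 on the combination arrays and 1415, 1347 and 1484 on the vehicle arrays. On array 1, 2 of the 8 genes were above the vehicle mean. Lep, the fat cell hormone leptin, was too dim to be tested, at 16.5, 51.1 and 6.30 on the combination arrays and 10.3, 22.6 and 19.4 on the vehicle arrays. Of 13 genes for triglyceride synthesis and storage, 12 had a positive mean difference, Plin2 was higher in all 3 arrays, and 7 were above the vehicle mean on array 1. Dgat2, which adds the last fatty acid to a triglyceride, had 216, 518 and 820 on the combination arrays and 252, 205 and 211 on the vehicle arrays (adjusted p = 0.331). Mgll, the monoglyceride lipase, had 259, 496 and 679 on the combination arrays and 277, 234 and 240 on the vehicle arrays (adjusted p = 0.267). Without combination array 1 both were called (adjusted p = 0.00460 and 0.00287). Both had been sorted by array 1 not meeting the rule, so these calls are no separate support.

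Lipogenic genes with the same pattern included Thrsp, a lipogenic factor responsive to thyroid hormone, with 414, 970 and 1325 on the combination arrays and 411, 271 and 327 on the vehicle arrays (adjusted p = 0.147). Acly, which supplies cytosolic acetyl-CoA for fatty acid synthesis, had 160, 312 and 377 on the combination arrays and 125, 97.8 and 122 on the vehicle arrays (adjusted p = 0.0989). Without combination array 1, Thrsp and Acly were called at an adjusted p of 0.000401 and 0.00198, which likewise follows the sorting by array 1. The summed signal of the fat cell markers was 3858, 3974 and 4372 on the exercise arrays and 3994, 3959 and 3855 on the GW arrays, so combination arrays 2 and 3 were the highest of all 12. In bulk RNA, more fat cells in a sample and more of these RNAs per cell cannot be told apart.

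Leaving out combination array 1 moved the number of calls more than leaving out any other array. Without it, 52 probe sets were called against vehicle, 46 higher and 6 lower, in 41 genes, and 27 of the 52 belonged to the class higher in arrays 2 and 3. That class holds 184 of the tested probe sets (1.36%). Its members were sorted by array 1 not meeting the rule, so their calls without array 1 are no separate support. Adipoq, Cidec, Retn and Lipe, all of that class, were among these calls. Their limma adjusted p was 0.000464, 0.00545, 0.00325 and 0.000570, with log2 differences of 2.08, 2.72, 2.55 and 1.96. Pdk4 was called too, at a log2 difference of 1.33 ± 0.26 (adjusted p = 0.0393). Of the 21 probe sets called with all arrays, 17 remained. Without combination array 2 or 3, 9 and 10 probe sets were called, and 10 and 32 without vehicle array 2 or 3. Over the tested probe sets, combination array 1 correlated as closely with the vehicle arrays as with its own group (mean r of 0.9599 with each). For combination array 2 the mean r was 0.9623 with its own group and 0.9565 with vehicle, and for array 3 it was 0.9596 and 0.9570.

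**Figure D4:**
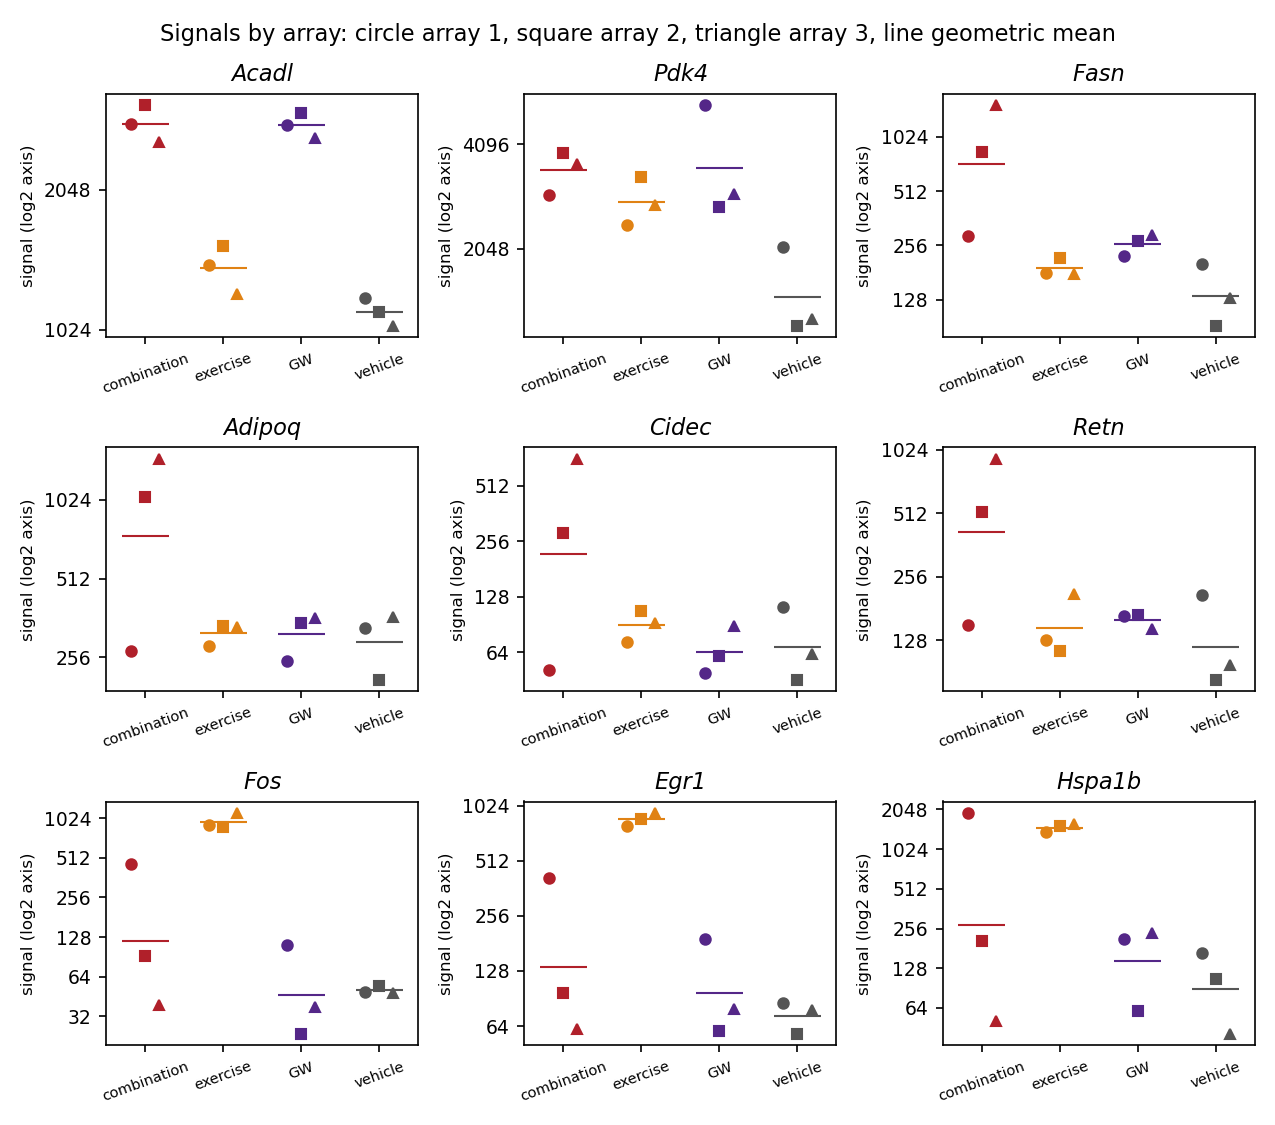
Signal (log axis) of 9 genes on each array of the combination, exercise, GW and vehicle groups, with a line at the geometric mean and Hspa1b shown by its brighter probe set. Acadl and Pdk4 are high on all 3 combination arrays, Adipoq, Cidec and Retn on combination arrays 2 and 3, and Fos, Egr1 and Hspa1b on combination array 1 and on the exercise arrays.

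Immediate early and heat shock genes showed the opposite array pattern, with array 1 highest. Fos, the AP-1 subunit induced within minutes of a stimulus (Entrez gene 14281), had 460, 92.5 and 39.2 signal units on the combination arrays and 49.3, 54.2 and 48.3 on the vehicle arrays. The 3 vehicle arrays lay close together, while the combination arrays ran from below to far above them (log2 difference 1.23 ± 0.66, adjusted p = 0.565). Egr1, an early response zinc finger factor, had 414, 96.4 and 61.8 on the combination arrays and 85.3, 57.9 and 78.7 on the vehicle arrays (adjusted p = 0.609). In trained mice without GW1516 all 3 arrays were high, with Fos at 900, 872 and 1127 and Egr1 at 794, 869 and 937 on the exercise arrays.

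Hspa1b, an inducible HSP70 chaperone (Entrez gene 15511), had 1916, 161 and 58.2 on the combination arrays and 93.5, 108 and 39.6 on the vehicle arrays on 1 probe set (log2 difference 1.83 ± 0.86, adjusted p = 0.501). Its near-identical copy Hspa1a, whose RNA can share probes with it, had 1308, 141 and 65.9 on the combination arrays and 93.3, 88.8 and 82.8 on the vehicle arrays. Dnajb1, an HSP40 co-chaperone, had 1697, 224 and 121 on the combination arrays and 144, 214 and 211 on the vehicle arrays (adjusted p = 0.648, with a log2 difference of -0.18 without array 1). Array 1 alone was far above the vehicle arrays in these chaperone genes. Hsp90aa1, the inducible HSP90, was 1375, 611 and 551 on the combination arrays and 522, 509 and 410 on the vehicle arrays (adjusted p = 0.419).

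Of 19 tested immediate early genes, 13 had a positive mean difference, 6 were carried by 1 or 2 arrays, and none was called or higher in all 3 arrays. Of 17 heat shock genes, 12 were positive and 4 were carried by 1 or 2 arrays, with none called. Over all 7940 genes, 3.46% were carried by 1 or 2 arrays as higher and 2.32% as lower. By array, the heat shock median was 0.48, 0.16 and -0.09 relative to the vehicle mean. Fos RNA levels follow signals that act on a cyclic AMP response element close to its start. TGACG, the core of that element, occurs in 20.8% of the RefSeq windows and in 6 of the 17 windows of called genes, each of a different gene. The Fos window, shown because Fos marks the pattern of array 1, lies at chr12:85473640-85473939 on the plus strand of GRCm38.p6 and held 2 matches, in capitals.
Fos: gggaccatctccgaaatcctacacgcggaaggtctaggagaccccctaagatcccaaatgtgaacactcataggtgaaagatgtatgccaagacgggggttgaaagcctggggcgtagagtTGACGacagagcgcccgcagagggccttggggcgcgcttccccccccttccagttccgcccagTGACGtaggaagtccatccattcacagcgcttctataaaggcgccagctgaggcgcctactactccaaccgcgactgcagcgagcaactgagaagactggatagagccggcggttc

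Other genes varied between arrays in further patterns. Myh2, the fast IIa myosin heavy chain, had 922, 2377 and 703 on the combination arrays and 1191, 384 and 248 on the vehicle arrays (adjusted p = 0.599), and Mb, the oxygen store myoglobin, had 6389, 8300 and 5298 on the combination arrays and 5513, 3931 and 3225 on the vehicle arrays (adjusted p = 0.469). Both genes ranged widely within the vehicle group. Ldhb, the heart-type lactate dehydrogenase subunit, had 724, 802 and 468 on the combination arrays and 579, 289 and 236 on the vehicle arrays on its brightest probe set (log2 difference 0.93, adjusted p = 0.484). Another Ldhb probe set differed by 1.75 and was not called either (limma adjusted p = 0.336). Of 10 tested slow fibre genes, 7 had a positive difference, 1 was carried by 1 or 2 arrays and none was called, with a median of 0.32. Over all 7940 genes, 275 were carried by 1 or 2 arrays as higher.

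The machinery of mitochondrial respiration gave no calls. Of 32 tested oxidative phosphorylation genes, 28 had a positive difference and all lay between -0.05 and 0.25 on the log2 scale, with a median of 0.12 and none called or higher in all 3 arrays. Uqcrc2, a core subunit of complex III, had 3895, 3929 and 3792 on the combination arrays and 3234, 3483 and 3059 on the vehicle arrays (adjusted p = 0.252). Of 16 genes of the tricarboxylic acid cycle, 13 were positive with a median of 0.09 and none was called. Such small differences were not particular to respiration. All 15 tested fast fibre contractile genes and all 9 muscle fibre markers were positive, each list with a median of 0.14 and no call. Ppargc1a, the coactivator PGC-1α that drives mitochondrial biogenesis, had 448, 451 and 533 on the combination arrays and 728, 435 and 436 on the vehicle arrays (log2 difference -0.12 ± 0.24, adjusted p = 0.920), and without vehicle array 1, the highest of the 6, the difference was 0.13.

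Lists of other cell types and processes had medians over the 3 arrays near that of all genes, but differed between arrays. Macrophage markers had a median of 0.06 over 15 genes and lay at -0.41, 0.31 and 0.06 relative to the vehicle mean on combination arrays 1, 2 and 3, with the vehicle arrays at 0.56, -0.17 and -0.23. Extracellular matrix genes had a median of 0.03 over 20 genes, with -0.20, 0.23 and 0.04 by combination array. Endothelial markers had 0.06 over 14 genes, with -0.09, 0.13 and 0.15, and Schwann cell and nerve markers -0.10 over 4 genes, with -0.52, -0.14 and 0.16. Combination array 1 was thus the lowest of the 3 for each of these cell types, as for fat cell markers, and the part of these cells in the results was not tested. Clock genes had a median of 0.05 over 14 genes and genes of proteolysis -0.02 over 12, and no gene of these lists was called against vehicle.

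Probe sets of blood genes gave differing values. Among the called probe sets, 2 match several hemoglobin genes each, so that no single gene can be named from them. The brighter had 4845, 6878 and 5972 signal units on the combination arrays and 3666, 3701 and 3476 on the vehicle arrays (log2 difference 0.69, limma adjusted p = 0.0308). The other had 3510, 5393 and 4556 on the combination arrays and 2637, 2922 and 2718 on the vehicle arrays (0.68, limma adjusted p = 0.0499). Both were above every vehicle array, lowest on combination array 1, and met the 1.5-fold rule on arrays 2 and 3. On the exercise arrays the brighter had 6568, 4960 and 5916, and on the GW arrays 4356, 3687 and 4156. Without any 1 vehicle array, combination array 2 or 3, exercise array 3 or GW array 3, neither was called (adjusted p = 0.0537 to 0.206), and the dimmer one was not called without GW array 1 or 2 either (0.0536 and 0.0699). Hba-a2, a hemoglobin α chain gene with a probe set of its own, was dim, at 14.0, 21.4 and 27.6 on the combination arrays and 45.1, 44.0 and 29.9 on the vehicle arrays (adjusted p = 0.472). Alas2, the heme enzyme of red cell precursors and the one listed blood marker tested on a probe set of a single gene, had 52.1, 68.7 and 56.5 on the combination arrays and 48.4, 49.2 and 14.2 on the vehicle arrays (adjusted p = 0.556). The part of blood RNA in the other results was not tested.

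To place the joint response beside each treatment alone, the combination arrays were also set against the GW arrays and the exercise arrays. These contrasts share the combination arrays with the comparison above, so their values are given side by side and no overlap is drawn. Against GW, limma called 0 of 13576 probe sets (0.0%), with 781 at an unadjusted p under 0.05 (5.75%). Acadl differed by 0.01 ± 0.10 on the log2 scale (adjusted p = 0.994), and by -0.058 and -0.035 without combination array 2 or GW array 3, and Slc27a1 by 0.32 (adjusted p = 0.856). Fasn and the dimmer Scd1 probe set were higher in the combination by 1.47 ± 0.42 and 1.85 ± 0.37 without passing the test (adjusted p = 0.716 and 0.287). The smallest p was that of Kpna4, a nuclear import receptor, at 246, 184 and 170 on the combination arrays and 478, 355 and 396 on the GW arrays on 1 of its 2 tested probe sets (adjusted p = 0.218). Without combination array 1, 35 probe sets were called against GW, 31 higher and 4 lower, with Adipoq at 1.98, Cidec at 2.80, Fasn at 2.13 and Kpna4 at -1.20 on the log2 scale among them. Of the 35, 22 belonged to the class higher in arrays 2 and 3, which had been sorted by array 1 not meeting the rule. Without GW array 2, 1 probe set was called.

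Against exercise, 22 probe sets were called (0.162%), 13 higher (0.0958%) and 9 lower (0.0663%). Slc27a1, Fbp2 and Acadl rose by 1.55 ± 0.15, 1.21 ± 0.12 and 1.03 ± 0.10 on the log2 scale (limma adjusted p = 0.000206 each), against 1.85, 1.499 and 1.35 in the contrast with vehicle. Cpt1a rose by 1.46 ± 0.23 against exercise (limma adjusted p = 0.0169), where the exercise arrays had 53.5, 48.3 and 82.5 signal units, and its adjusted p was 0.0709 to 0.110 without exercise array 1 or 2 or combination array 2 or 3. Wnt4, a secreted signalling protein, had 584, 637 and 575 on the combination arrays and 291, 266 and 247 on the exercise arrays (limma adjusted p = 0.00161). Every combination array of Wnt4 was above every exercise array. The vehicle arrays, at 353, 444 and 470, were above every exercise array too. The combination differed from vehicle by 0.51 on the log2 scale (limma adjusted p = 0.201) and from GW by 0.004 (limma adjusted p = 0.997). 

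The called decreases against exercise included Odc1, the ornithine decarboxylase of polyamine synthesis, with 338, 311 and 436 on the combination arrays and 702, 866 and 923 on the exercise arrays on 1 of its 3 tested probe sets (limma adjusted p = 0.00948, and 0.0577 to 0.0837 without exercise array 2 or 3 or combination array 2). Dusp1, an immediate early phosphatase of MAP kinases, had 669, 400 and 394 on the combination arrays and 1051, 1067 and 1115 on the exercise arrays (limma adjusted p = 0.0264, and 0.0822 to 0.189 without any 1 exercise array or combination array 2 or 3). Every combination array of both genes was below every exercise array. On the vehicle arrays Dusp1 had 519, 448 and 690, which overlap the combination arrays (log2 difference from vehicle -0.20, limma adjusted p = 0.790). Odc1 had 822, 558 and 514 on the vehicle arrays (log2 difference from vehicle -0.79, limma adjusted p = 0.132). Against exercise, Fos and Egr1 differed by -3.02 ± 0.66 and -2.68 ± 0.53 (adjusted p = 0.104 and 0.0664) and were not called. Under other settings, array weights called both (0.0274 for Egr1 and 0.0454 for Fos), and Egr1 was also called with a constant added before log2 (0.0490), with the replicate number as a block (0.0194) and without GW array 1 (0.0314). Without combination array 1, 83 probe sets were called against exercise, 47 higher and 36 lower, among them Fos at -3.99 and Egr1 at -3.49 on the log2 scale. Without combination array 2 or exercise array 3, 8 probe sets were called in each case, and 13 without exercise array 2.

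**Figure D5:**
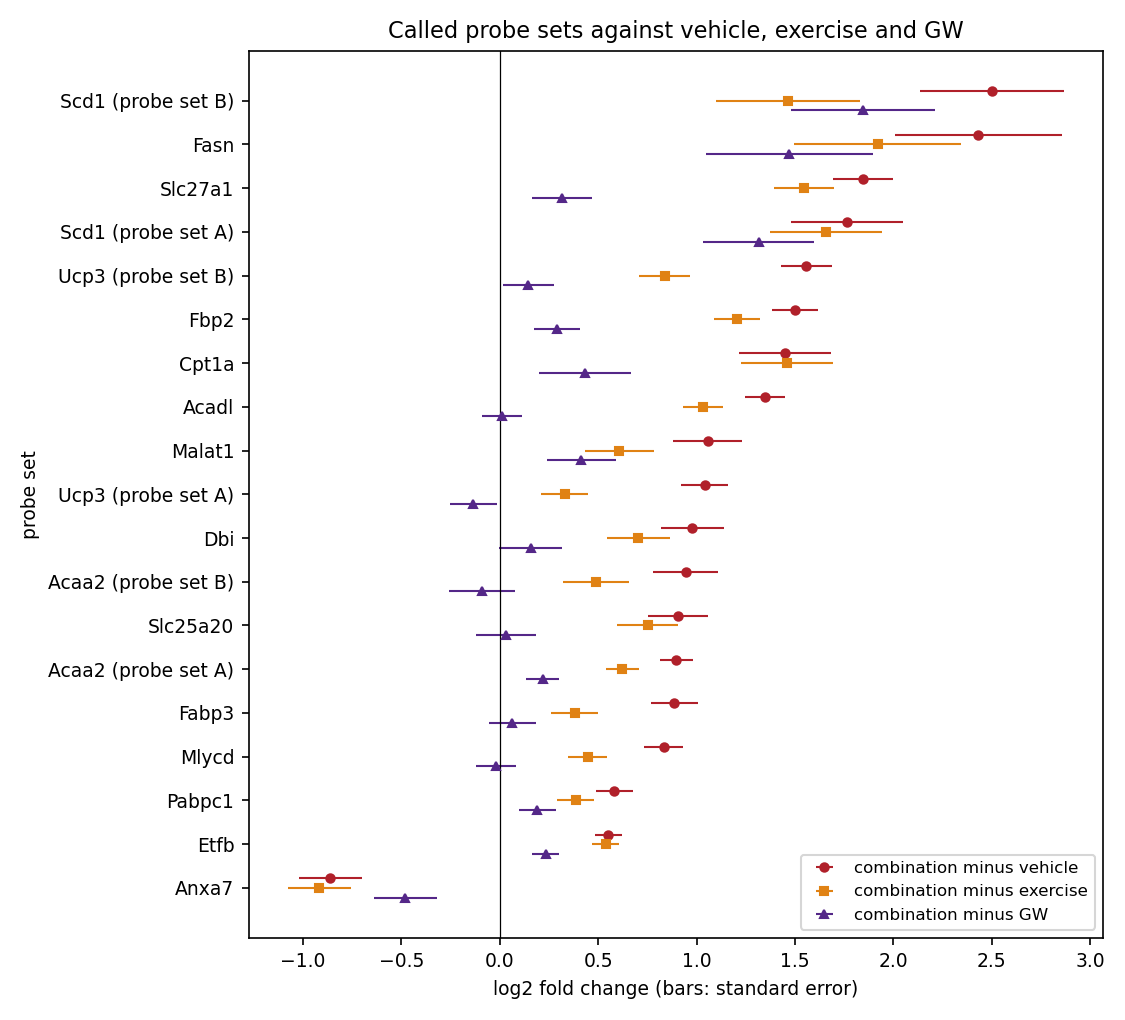
Log2 fold change with its standard error for the probe sets of 1 gene called against vehicle, in the contrasts of combination with vehicle, with exercise and with GW, where A and B tell probe sets of 1 gene apart. Acadl lies at 1.35, 1.03 and 0.01, and Fasn at 2.43, 1.92 and 1.47.

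Some genes were named after their values were seen, outside the naming rule: Acadm, Acadvl, Acly, Adipor2, Cd36, Dgat2, Dnajb1, Dnajc11, Dusp1, Hba-a2, Kpna4, Lep, Odc1, Pabpc1, Ralb, Thrsp and Wnt4.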

How the data were processed

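RNA of mouse quadriceps, flash frozen and extracted with Trizol, was labelled with biotin and hybridized to 12 arrays, 3 per group, each holding a pool of 3 mice. The values deposited by the authors are array intensities (linear, none below 0) from MAS5, per the submitters' processing notes, which give no version. MAS5 subtracts mismatch signal, so that low values are noisy and their fold changes poorly set. Detection calls were not used here, and no label or header gives a scan date.

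The deposited values were log2-transformed with no further scaling and no pseudocount. Of 22690 probe sets, 64 control probe sets were left out, and the upper 60% of the rest by mean log2 signal, 13576 probe sets, were fitted with limma 3.58.1 in R 4.3.3 (1 coefficient a group over all 12 arrays, empirical Bayes with an intensity trend, 8 residual degrees of freedom, Benjamini-Hochberg adjustment over all tested probe sets). The median standard error was 0.2085 on the log2 scale, and the number of arrays limits the precision. Tables and figures were made with Python 3.11.15, pandas 2.3.3, numpy 2.4.6 and matplotlib 3.10.9. The fit was tested on simulated data. Of the tested probe sets, 12513 have 1 gene symbol in the platform annotation, which can be old. Gene lists count 1 probe set a gene, the one with the highest mean signal.

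Genes were named by a rule: every called probe set, up to 15 each way, then the 12 largest increases and 12 largest decreases among uncalled probe sets meeting the rule in all 3 arrays, the 4 largest each way for each set of 1 or 2 arrays, up to 4 members of each list, and 16 listed genes. Not every gene it picked is described. The comparison, the gene lists and the rule were chosen with earlier results of these data known. No chance test beyond the limma fit was made.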

Additional observations from a re-analysis of the deposited data

How the results depend on the processing

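Acadl, Slc27a1, Fbp2, Mlycd, Ucp3 on both probe sets and Acaa2 on its called probe set with the smallest p were called against vehicle under all 22 alternatives. Etfb and Fabp3 lost their call under 1 alternative, moderation without an intensity trend (adjusted p = 0.111 and 0.118). All other called probe sets lost their call without the trend too (limma adjusted p = 0.0656 to 0.267), and under further alternatives. The number called against vehicle, 21 of 13576, was 7 without the trend and 94 with array weights, and 9 to 52 when each array was left out in turn. Against GW, it was 0, with 0 to 35 over the arrays left out. Against exercise, it was 22, with 4 without the trend, 39 with array weights, 40 with only the arrays of the 2 groups compared, and 8 to 83 over the arrays left out. Whether the array numbers of the titles pair samples was not settled. Deviations of combination arrays and arrays of other groups with the same number correlated between -0.045 and 0.032. Those with other numbers correlated between -0.059 and 0.061, and such correlations cannot exclude pairing. With the number as a replicate block, 18, 1 and 26 probe sets were called against vehicle, GW and exercise. The probe sets higher in all 3 arrays, 196, numbered 123 with 10.46 added before log2, 671 with no filter, 60 with only the upper 40% by signal, 49 with a 2-fold rule and 226 to 478 over the arrays left out. The 39 lower in all 3 arrays numbered 20, 251, 13 and 2 under the same settings and 44 to 157 over the arrays left out. The 880 carried by 1 or 2 arrays numbered 564, 4542, 240 and 206, and 758 to 1052. Fewer or more probe sets tested is part of the filter settings. A 2-fold rule can only lower the counts of probe sets higher or lower in all 3 arrays. Leaving out a combination or vehicle array removes a condition of the rule, and each such count was above the 196 and 39. The cause of the other shifts was not tested. The log2 difference reversed for Myh4 after quantile normalization (-0.039). It also reversed with single arrays left out, over a range of -0.24 to 0.13 for Ppargc1a, -0.18 to 1.72 for Dnajb1 and, against GW, -0.058 to 0.077 for Acadl. The genes named against GW and exercise were recomputed under alternatives chosen after seeing the data. Signals near the bacterial controls limit the fold changes of dim genes.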
